A study of Mus musculus with 6 samples.

Results

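Faf1 was followed probe by probe in DNA of mouse malignant mesothelioma, a cancer of the mesothelium that covers lungs, heart and abdominal organs. The members are the non-control array probes to which the deposited annotation gives the gene name Faf1. There were 41 of them among 220065 autosomal probes on the denser array design. Of these, 2 were also among the 40284 autosomal probes of the sparser design. In the mouse build mm7 the 41 probes run from chr4:109055389-109340377, a span of 284989 bp. The start positions of neighbours are a median of 6510.5 bp apart (3990 to 14607 bp), and no probe of another gene lies among them. The files pair the probes with the Faf1 mRNA NM_007983 but do not say which lie in an exon or an intron.

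The study hybridised tumour DNA labelled with Cy5 against C57BL/6J reference DNA labelled with Cy3, in the same orientation throughout. Its 6 arrays come from 5 tumours. ARF-129, ARF-128, ARF-112 and ARF-104 were read on the denser design, ARF-110 on the sparser design alone, and ARF-128 a further time on the sparser design. The samples are primary malignant mesothelioma cells, except that the labels of ARF-104 give no cell type. The study's description gives the genotype Arf(+/-) for 4 mice, and does not say which of the 5 tumours lies outside them. The strain and age of the mice are not given in these labels, nor is the meaning of the title ARF-128PlusMinus, which the denser array of ARF-128 carries. The study's title names asbestos as the inducing agent and lowered Faf1 as its subject, so Faf1 was chosen by the study on these samples and its direction here is not independent evidence. All 5 tumours form 1 group, and the control on each array is the reference DNA itself.

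Values are log2 ratios of tumour over reference DNA, centred on the median of each array's autosomal probes, so that 0 is the level of the middle autosomal probe. Loss of 1 of 2 copies in every cell would read -1, which is 50% of the reference. The probe noise, an SD taken from differences between neighbouring probes, was 0.48 in ARF-129, 0.37 in ARF-104, 0.39 in ARF-112 and 0.78 for ARF-128, on the denser design. On the sparser design it was 0.43 in ARF-128 and 0.15 in ARF-110. The arrays of ARF-128 stand apart: over 40276 shared probes the sparser one correlated at r = 0.41 with the denser one of the same tumour, but at 0.69 with ARF-129, 0.63 with ARF-104 and 0.60 with ARF-112. Results that use ARF-128 are therefore given by its denser array, and with the sparser array or without the tumour where that changes them. ARF-129, ARF-104 and ARF-112 were scanned on 1 day, the sparser arrays on another and the denser array of ARF-128 on a day of its own. Every Faf1 probe was well above background in at least 1 channel on each of the 6 arrays, and none was saturated or marked as an outlier.

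Faf1 encodes Fas-associated factor 1, a ubiquitin-binding adaptor protein. It was named for its binding to the death receptor Fas and takes part in Fas-induced apoptosis. Through its UBX domain it binds VCP, the ATPase that extracts ubiquitinated proteins from complexes and membranes, and it is known to hold back NF-kB activation by the IkB kinase complex. Array comparative genomic hybridisation reads the number of gene copies, not the amount of RNA or protein.

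The probes named singly are the pair on both designs, the 3 with the lowest and the 3 with the highest mean over the 4 tumours of the denser design, in the order of the chromosome. A_53_P162955 is both on the 2 designs and the lowest. Their sequences are shown because probes of the same gene, a few kilobases apart, gave values on opposite sides of 0 in the same tumours. They are printed 5′ to 3′ as the deposited file gives them, with the longest uninterrupted run of A and T in capitals. The files do not give the strand.

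A_67_P05356851: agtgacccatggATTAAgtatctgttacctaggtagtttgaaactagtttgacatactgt
A_53_P120972: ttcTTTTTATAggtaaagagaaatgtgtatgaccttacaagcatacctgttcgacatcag
A_67_P05357102: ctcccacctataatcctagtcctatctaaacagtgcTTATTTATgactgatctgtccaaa
A_67_P05357129: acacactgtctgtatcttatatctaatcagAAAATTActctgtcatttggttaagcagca
A_67_P05357239: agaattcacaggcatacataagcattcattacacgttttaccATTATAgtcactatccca
A_53_P162955: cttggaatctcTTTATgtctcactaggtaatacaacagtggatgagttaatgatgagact
A_67_P05357326: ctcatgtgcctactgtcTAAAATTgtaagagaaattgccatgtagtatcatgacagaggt

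These 7 oligonucleotides are each 60 bases long, with 33.3% to 38.3% G and C. The longest A and T run was 5, 8 and 7 bases in the 3 lowest (A_53_P162955, A_67_P05357102 and A_67_P05357129) and 5, 6 and 7 bases in the 3 highest (A_67_P05356851, A_67_P05357239 and A_67_P05357326), so its length did not separate them. All 41 probes are 57 to 60 bases long with 31.7% to 38.3% G and C (median 36.7%). None holds AGCT or GTAC, the motifs cut by AluI and RsaI, with which the labels say the DNA was digested. Both motifs read the same on either strand, and among all 220065 autosomal probes 77 (0.0350%) hold at least 1 of them.

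The 3 lowest probes lay in the middle and later part of the gene. A_53_P162955, at chr4:109267315-109267374 and 211.926 kb from the start of the first probe, read -2.04 in ARF-129, -1.22 in ARF-104, -1.19 in ARF-112 and -1.82 in ARF-128 on the denser design. On the sparser design the same probe read -0.52 in ARF-128 and -0.36 in ARF-110. It was thus below 0 on all 6 arrays, but by far less on the sparser design. A_67_P05357102, at chr4:109194012-109194071, read -1.39, -1.14, -1.04 and -1.63 in ARF-129, ARF-104, ARF-112 and ARF-128. A_67_P05357129, its neighbour at chr4:109204452-109204511, read -1.53, -0.84, -0.77 and -0.72 in the same order. These 3 probes were below -0.5 in each of the 4 tumours.

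The 3 highest probes were scattered along the gene. A_67_P05357326, at chr4:109294703-109294762, read 0.01 in ARF-129, 0.34 in ARF-104, 0.61 in ARF-112 and 1.83 in ARF-128, while the probe before it, A_67_P05357315, read -1.45, -0.59, -0.65 and -1.12. A_67_P05356851, at chr4:109096116-109096175, read 0.02, 0.48, 0.72 and 0.99 in the same order of tumours. A_67_P05357239, at chr4:109249828-109249887, read 0.01, 0.17, 0.45 and 0.61. In ARF-129 all 3 were at the autosomal median, and in the other tumours above it. The other probe on both designs, A_53_P120972 at chr4:109171195-109171254, read -0.26, -0.24, 0.34 and 0.06 on the denser design. It read -0.15 on the sparser array of ARF-128 and -0.06 in ARF-110, and so had no common direction.

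Tested against 0 with limma and Benjamini-Hochberg adjustment over 219850 autosomal probes, 17 of the 41 Faf1 probes (41.5%) were lower in the 4 tumours at an adjusted p below 0.05, where 16.2% of all autosomal probes were. In the higher direction 1 of 41 passed, where 14.8% of all probes did. Among the 199 probes within 1 Mb of Faf1, 51 (25.6%) were lower, and among the 13427 other probes of chromosome 4, 2970 (22.1%) were. The lowest probe, A_53_P162955, had a mean of -1.57 (SD 0.43, SE 0.18, n = 4, limma adjusted p = 0.0037). A_67_P05357102 had a mean of -1.30 (SE 0.15, limma adjusted p = 0.0037) and A_67_P05357129 one of -0.96 (SE 0.17, limma adjusted p = 0.0070), the last of which did not pass with a random block for scan day (-0.91, limma adjusted p = 0.054). None of the 3 passed with normexp (limma adjusted p 0.064 to 0.089). The 1 higher probe was A_67_P05356851, at 0.55 (SE 0.18, limma adjusted p = 0.0445). It did not pass with the random block (0.65, limma adjusted p = 0.124), with normexp (0.089, limma adjusted p = 0.237) or with any 1 of the 4 tumours left out (0.41 to 0.73, limma adjusted p 0.057 to 0.142).

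The 17 lower probes were spread from the first probe of the gene to its last, 284.929 kb on. There were 7 before the gene's midpoint and 10 after it, each was below 0 in all 4 tumours, and no more than 2 followed each other without a probe that was not called. The 14 of them outside the 3 lowest had means from -0.95 to -0.49. The 23 probes called in neither direction had means from -0.41 to 0.70 with a median of -0.02. Over all 41 the median of the probe means was -0.32.

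The other probes named singly did not pass. A_67_P05357326 had the highest mean, 0.70, but an SE of 0.27, ARF-129 and ARF-128 being 0.01 and 1.83 (limma adjusted p = 0.080). A_67_P05357239 averaged 0.31 (SE 0.15, limma adjusted p = 0.145) and A_53_P120972 -0.02 (SE 0.15, limma adjusted p = 0.915). Of all 41 probes, 31 had a mean below 0, beside 117 of the 199 flank probes and 8436 of the 13427 other chromosome 4 probes. The count of lower probes was 3 without ARF-129 and 11 without ARF-104, where 3.53% and 8.80% of all probes were lower. With a normexp background correction it was 5 against 5.09%, and with a random block for scan day 4 against 5.97%. As a share of the 41 probes, normexp gave 12.2%, beside 9.05% in the flank and 7.65% of other chromosome 4 probes. With the random block the same shares were 9.76%, 7.54% and 7.38%. They were 7.32%, 3.52% and 3.76% without ARF-129, and 26.8%, 13.6% and 13.3% without ARF-104.

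Read tumour by tumour, the mean of the Faf1 probes was below 0 on all 6 arrays. ARF-129 was lowest, at -0.67 (SD of the 41 probes 0.49), or 62.8% of the reference. ARF-128 followed at -0.32 (SD 0.77) on the denser array, or 80.3% of the reference, and -0.34 from the 2 probes of the sparser array. ARF-104 read -0.28 (SD 0.38), or 82.4%, and ARF-110 -0.21 from its 2 probes, or 86.5%. ARF-112 was nearest to 0, at -0.09 (SD 0.43), or 93.7%. No mean reached the level of 1 lost copy of 2 in every cell, and in bulk DNA a loss in some of the tumour cells and a mixture with other cells cannot be told apart.

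These positions depend on which probes an array holds. Only ARF-128 was read more than once: the mean of its 2 shared probes was -0.88 on the denser array and -0.34 on the sparser one. No tumour was read more than once on all 41 probes, so whether neighbours in the order above differ beyond the spread of repeated readings was not tested. Over the 2 shared probes alone, the means were -1.15 in ARF-129, -0.73 in ARF-104 and -0.43 in ARF-112 on the denser design and -0.21 in ARF-110 on the sparser.

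Counted at or below -0.5, Faf1 had 26 of 41 probes in ARF-129, where 19.7% of all autosomal probes of that array were as low. On this array 45.02% of chromosome 4 and 45.2% of the flank were as low too. ARF-104 had 13 of 41 (background 11.8%), ARF-112 6 of 41 (background 14.9%) and the denser array of ARF-128 15 of 41 (background 27.2%). Of the 2 probes on the sparser design, neither was as low in ARF-110 (background 2.30%) and 1 was in ARF-128 (background 15.6%). The share in ARF-112 is near its background. In all 4 tumours of the denser design at once, 5 of 41 Faf1 probes were at or below -0.5, a rule met by 5.75% of all autosomal probes and 6.93% of those on chromosome 4, and 21 were below 0, a rule met by 27.4% and 31.96%.

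Among the 1318 autosomal genes with at least 20 probes, 1.21% had a lower mean than Faf1 in ARF-129, 2.88% in ARF-104, 5.24% in ARF-128 and 38.0% in ARF-112. Faf1 was thus near the low end of such genes in 3 of the 4 tumours and inside the middle range in ARF-112.

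Over the 5 tumours the mean of the Faf1 probes was -0.31 (SD 0.22, SE 0.10, 95% confidence interval -0.55 to -0.08, n = 5), with all 5 tumours below 0. It did not pass the adjustment over 19903 genes (limma, Benjamini-Hochberg adjusted p = 0.073), where 6.73% of genes were called lower and 8.12% higher. The exact two-sided sign-flip permutation test gave p = 0.0625, the smallest that 5 tumours allow. With ARF-128 by its sparser array the mean was -0.32 (limma adjusted p = 0.038), and over the 2 shared probes alone it was -0.68 (limma adjusted p = 0.017). The 2 shared probes are A_53_P162955, the lowest of the 41 (mean -1.33 over the 5 tumours), and A_53_P120972 (-0.03). ARF-110 entered every fit by these 2 probes alone, and so did ARF-128 by its sparser array. With normexp background correction the mean was -0.09 (limma adjusted p = 0.137), with -0.13 in ARF-129 and -0.02 in ARF-112 at its ends. Normexp narrowed the scale of the ratios too. The SD of the 41 probes became 0.10 in ARF-129, 0.18 in ARF-104, 0.15 in ARF-112 and 0.36 in ARF-128, from 0.49, 0.38, 0.43 and 0.77.

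Faf1 was also set against its own surroundings on the same arrays, as the mean of its probes minus the median of the probes of other genes or of no gene within 1 Mb on either side (199 probes on the denser, 42 on the sparser design). The flank read -0.38 in ARF-129, 0.03 in ARF-112, -0.11 in ARF-104, 0.00 in ARF-128 by the denser array and -0.09 in ARF-110. Faf1 minus its flank was -0.29, -0.12, -0.17, -0.32 and -0.11 in that order. The mean of the Faf1 probes was therefore lower than the flank's median in all 5 tumours. The flank itself was low in ARF-129, as was chromosome 4 as a whole with a median of -0.44. The median of the Faf1 probes minus the flank was -0.18 in ARF-129, -0.09 in ARF-112, -0.15 in ARF-104, -0.33 in ARF-128 and -0.11 in ARF-110. Against the flank past the gene alone, the Faf1 median was close in ARF-129 (-0.56 beside -0.54) and ARF-112 (-0.065 beside -0.073). In ARF-104, ARF-128 and ARF-110 it was below the flank on either side.

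The difference between the mean of the Faf1 probes and the flank averaged -0.20 (SD 0.10, SE 0.05, 95% confidence interval -0.33 to -0.07, n = 5). It lay at the threshold (limma, Benjamini-Hochberg adjusted p = 0.0497 over 19802 genes), where 10% of genes were called lower than their flank and 7.25% higher. The median gene lay at -0.02. The adjusted p by limma was above 0.05 without ARF-104 (-0.21, 0.147), without ARF-112 (-0.22, 0.145), without ARF-128 (-0.17, 0.052) and without ARF-129 (-0.18, 0.170). In 3 of these fits, without ARF-129, ARF-112 or ARF-104, none of the 19802 genes passed by limma (5294 to 5520 had an unadjusted p below 0.05, Faf1 among them), so a lost call there is not particular to Faf1. The adjusted p was also above 0.05 without the probe A_53_P162955 (-0.15, 0.126), with normexp (-0.035, 0.333) and with a random block for scan day (-0.21, 0.375), where by limma no gene passed either and 2939 had an unadjusted p below 0.05, Faf1 not among them.

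The gene's first part was then compared with its later part, divided at the midpoint between the first and last probe. The 21 probes before it averaged -0.60 in ARF-129, -0.27 in ARF-104, -0.06 in ARF-112 and -0.31 in ARF-128. The 20 probes after it averaged -0.75, -0.29, -0.13 and -0.32. The later part was thus lower in all 4 tumours, by a mean of 0.063 (SE 0.044, limma adjusted p = 0.299, where 33.8% of the 3285 genes with at least 10 probes were called in either direction). Split at the median probe in place of the midpoint, the difference was 0.16 (limma adjusted p = 0.034, where 1165 of the 3285 genes were called). That split moves only A_67_P05357102, with its mean of -1.30, from the first part to the later. Under normexp the difference at the midpoint turned to -0.066 (limma adjusted p = 0.062).

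In 4 stretches of equal length, with 11, 10, 11 and 9 probes, ARF-129 averaged -0.62, -0.57, -0.81 and -0.67, and ARF-104 -0.26, -0.28, -0.32 and -0.25. ARF-112 averaged -0.08, -0.04, -0.20 and -0.05, and ARF-128 -0.35, -0.27, -0.44 and -0.18. The stretch after the midpoint, which holds A_53_P162955, was the lowest in each of the 4 tumours, and all of these means were below 0. Within a stretch the SD of the probes was 0.34 to 0.65 in ARF-129 and 0.64 to 1.01 in ARF-128. This is the spread of single probes, not the error of a stretch's mean, and the differences between stretches were not tested.

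Windows of 5 neighbouring probes were lowest at the same place in 3 tumours. From 204.751 to 233.542 kb past the first probe the mean was -1.18 in ARF-129, -0.55 in ARF-104 and -0.46 in ARF-112. This window holds A_53_P162955. In ARF-128 the lowest window, at -0.73, ran from 132.07 to 161.33 kb and holds A_67_P05357102 and A_67_P05357129. The longest unbroken run of probes below 0 was 21 probes in ARF-129, from 48.398 to 189.412 kb, 7 in ARF-104, 5 in ARF-128 and 3 in ARF-112. Between neighbouring probes the correlation was near 0, from -0.11 in ARF-104 to -0.00063 in ARF-128, and its median over the 741 genes with at least 30 probes was -0.01 in each of the 4 tumours.

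The level on either side of the gene's ends was read in groups of 10 probes. In ARF-129 the 10 probes before Faf1 averaged -0.51, its first 10 probes -0.58, its last 10 -0.81 and the 10 probes after it -0.53. In ARF-104 the same groups averaged -0.22, -0.27, -0.35 and -0.07, and in ARF-128 -0.22, -0.38, -0.35 and -0.02. In ARF-112 the 10 probes before the gene, at -0.35, were lower than its first 10, at -0.07, and its last 10, at -0.16, were lower than the 10 after it, at 0.11. The last 10 probes of the gene were thus lower than the 10 after it in all 4 tumours, and its first 10 lower than the 10 before it in 3, differences that were not tested. The probes before the gene include those of Cdkn2c, which encodes a CDK inhibitor, and the probes after it those of Dmrta2, a transcription factor gene.

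When each array was divided into segments of equal level by penalised least squares, 1 segment covered all of Faf1 on every array and none began or ended inside the gene. On the sparser design the 2 Faf1 probes are fewer than the 5 that a segment needs, so the gene could not form its own segment. On the denser design Faf1 minus its flank (-0.12 to -0.32) was smaller than the probe noise (0.37 to 0.78). Whether the segments could find a step of that size over 41 probes was not tested. In ARF-129 the segment read -0.49 and was called lost at the threshold of 0.25; it ran over chr4:93599077-111400047, which is 17.8 Mb and 1831 probes. In the other tumours the segment was not called: it read 0.11 over 16.1 Mb in ARF-112, -0.11 over 21.8 Mb in ARF-104, -0.07 over 13.6 Mb in ARF-110 and -0.10 over 21.3 Mb in ARF-128. The sparser array of ARF-128 read -0.17 over 21.8 Mb. The nearest segment end was that of ARF-112, at position 109725783, past the last Faf1 probe. The segment mean over Faf1 was -0.13 over the 5 tumours (limma adjusted p = 0.366).

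The up-and-down pattern along the gene was shared between tumours. Over the 41 probes, ARF-112 correlated with ARF-129 at r = 0.95 and with ARF-104 at 0.94, and ARF-104 with ARF-129 at 0.89. ARF-128, by its denser array, correlated at 0.83 with ARF-104, 0.78 with ARF-112 and 0.74 with ARF-129. These are descriptions: the probes share arrays, the same reference DNA and base composition. The median r over 741 genes with at least 30 probes was 0.91, 0.90 and 0.89 for the first 3 pairs and 0.70, 0.64 and 0.62 for those with ARF-128, so likeness of this kind is common to genes on these arrays. Of the sum of squares of the 41 probes in 4 tumours, 70.3% went with the probe, 13.3% with the tumour and 16.5% with neither. In the 741 genes the medians were 67.1%, 7.39% and 24.1%.

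Differences between ARF-129, ARF-112 and ARF-104 varied less along the gene than their ratios to the reference, whose SD over the probes was 0.49, 0.43 and 0.38. ARF-129 was below ARF-112 at 41 of 41 probes, by -0.58 on average (SD 0.16 over the probes, range -0.86 to -0.28), and below ARF-104 at 41 of 41, by -0.39 (SD 0.23). Among all autosomal probes 48.7% and 48.3% were lower in ARF-129 in these pairs. The flank showed nearly the same distance, a median of -0.52 against ARF-112 and -0.36 against ARF-104, with 92.5% and 98.0% of its probes lower. ARF-104 was below ARF-112 at 36 of 41 probes, by -0.19 (SD 0.15, background 52.3%), and the flank by -0.16.

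ARF-128 did not keep to this order. Its denser array was below ARF-104 at 20 of 41 probes (background 49.9%), with a mean difference of -0.04 and an SD of 0.50, and below ARF-112 at 25 of 41 (background 49.6%). ARF-129 was below it at 31 of 41 (background 49.4%). Probe by probe, ARF-129 was the lowest of the 4 at 31 probes and ARF-128 at the other 10, while ARF-112 was the highest at 22, ARF-128 at 16 and ARF-104 at 3.

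Base composition and signal were read beside these values. Over the 41 probes the mean log2 ratio correlated with the share of G and C at r = 0.19 and with the share of T at r = -0.29, against 0.17 and -0.28 over all autosomal probes. The level expected at the Faf1 probes from their G and C share alone lay between -0.02 and 0.00 on each array. With this share adjusted for, 15 probes were called lower in place of 17, and Faf1 minus its flank was -0.19 (limma adjusted p = 0.055). The correlation with the reference-channel signal was -0.02.

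On the probes shared by both designs, where ARF-110 adds the fifth tumour, A_53_P162955 averaged -1.33 (SD 0.66, SE 0.22, n = 5, limma adjusted p = 0.0121), below 0 in 5 of 5 tumours. A_53_P120972 averaged -0.03 (SE 0.14, limma adjusted p = 0.881). So 1 of the 2 was lower, where 13.7% of the 40244 shared autosomal probes were. The call on A_53_P162955 was lost without ARF-112 and without ARF-129 (-1.36 and -1.15, limma adjusted p = 0.069 and 0.082), where 0.0199% of shared probes were called lower and its unadjusted p stayed below 0.05. It was also lost with normexp (-0.19, limma adjusted p = 0.053) and the random block (-1.24, limma adjusted p = 0.128).

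Genes whose proteins bind the Faf1 protein or act in its pathways were read from a list of 24, and 19 of them could be tested in all 5 tumours. By limma over all genes 4 of the 19 were higher, 1 was lower and 14 did not pass, where 8.12% of all genes were called higher and 6.73% lower, with a list median of 0.23 beside -0.01 over all genes. Fas, Rela, Chuk and Btrc lie on chromosome 19. Tnf and Hspa1a lie on chromosome 17 and had the same segment mean (0.15). Members on 1 chromosome can share a change of that chromosome, so these counts are not of independent genes. On the death receptor side (Fas, Fadd, Casp8, Ripk1, Tradd, Tnf, Tnfrsf1a and Traf2) 2 of 8 were higher. Tradd, the adaptor of the TNF receptor, read 0.77 for ARF-129, 0.18 for ARF-112, 0.71 for ARF-104, 0.10 for ARF-110 and 1.12 for ARF-128 (mean 0.58, SE 0.15, limma adjusted p = 0.042). Tnf, the cytokine, read 0.40, 0.70, 0.53, 0.20 and 0.85 in that order (mean 0.53, SE 0.11, limma adjusted p = 0.022) from a single probe. Both were above 0 in all 5 tumours. Fas itself averaged 0.23 (SE 0.11, limma adjusted p = 0.180).

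On the NF-kB side (Rela, Nfkb1, Ikbkb, Chuk, Ikbkg and Nfkbia) 1 of 5 with a value was lower and none higher by limma (2, Rela and Chuk, were higher at an unadjusted p below 0.05). Among the uncalled genes of the other sides, Traf2 (0.30) was higher at that unadjusted p, and Casp8 (-0.20) and Ctnnb1 (-0.33) were lower. Nfkbia, which encodes the inhibitor that keeps NF-kB in the cytoplasm, read -0.77, -0.71, -0.63, -1.61 and -0.07 in ARF-129, ARF-104, ARF-112, ARF-128 and ARF-110 (mean -0.76, SE 0.19, limma adjusted p = 0.034), again from 1 probe. On the ubiquitin and VCP side 2 of 6 with a value were higher. Btrc, the ubiquitin ligase subunit that recognises phosphorylated IkB and beta-catenin, read 0.61, 0.44, 0.32, 0.57 and 0.65 in that order over 20 probes of the denser design (mean 0.52, SE 0.09, limma adjusted p = 0.016). Hspa1a, a heat shock chaperone with a single probe, averaged 0.83 (SE 0.18, limma adjusted p = 0.025), with 0.00 in ARF-110 and 0.71 to 1.45 in the others. None of these 5 calls held with a random block for scan day (limma adjusted p 0.072 to 0.137, where 7 of the 19 had an unadjusted p below 0.05 and 6 of all 19903 genes passed). With ARF-129, ARF-112 or ARF-104 left out, 1 at a time, none of the 19903 genes passed by limma, these included (4874 to 5540 had an unadjusted p below 0.05). At that unadjusted p, 2 to 3 of the 19 were lower and 5 to 6 higher. By their segment means Tradd (0.27), Tnf (0.15), Nfkbia (-0.25) and Hspa1a (0.15) did not pass (limma adjusted p 0.200 to 0.283). In that fit 671 of 19903 genes passed, 0% of all genes being lower. Btrc passed there (0.44, limma adjusted p = 0.0052) but not over the shared probes (0.35, limma adjusted p = 0.067). Tradd did not pass with the GC adjustment (0.46, limma adjusted p = 0.092).

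Genes whose values over the 5 tumours were most like those of Faf1 were taken by the root mean square difference, among 2764 other autosomal genes with at least 10 probes on the denser and 2 on the sparser design. They were Sema3e (difference 0.036), the gene listed as A830039H10Rik (now Lcorl, 0.039), Stx18 (0.058), AK006601 (0.064) and the gene listed as Gm440 (now Rundc3b, 0.066). Sema3e read -0.60 for ARF-129, -0.10 for ARF-112, -0.26 for ARF-104, -0.24 for ARF-110 and -0.31 for ARF-128. AK006601 lies on chromosome 4 with Faf1 and the other 4 on chromosome 5. Their values minus their own flanks were -0.14, -0.17, -0.32, -0.18 and -0.17 in the order named, beside -0.20 for Faf1.

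On chromosome 4, 2 further genes were read beside Faf1. Cdkn2a, whose Arf product is the one inactivated in the mice, read -0.64 for ARF-129, -1.10 for ARF-112, -3.30 for ARF-104, -0.14 for ARF-110 and -1.08 for ARF-128 (mean -1.25, SE 0.38, limma adjusted p = 0.058), so it was lowest in ARF-104 where Faf1 was lowest in ARF-129. Without ARF-104 its mean was -0.74 (limma adjusted p = 0.068). It passed without ARF-110 (-1.53, limma adjusted p = 0.033), with ARF-128 by its sparser array or by the mean of both arrays (-1.22 and -1.24, limma adjusted p = 0.024 and 0.027) and over the shared probes (-1.40, limma adjusted p = 0.027). Cdkn2c, just before Faf1 on the chromosome, read -0.58, -0.55, -0.28, -0.27 and -0.20 in the same order (mean -0.38, SE 0.10, limma adjusted p = 0.037) from 2 probes of the denser design. It was nearly as low in ARF-112, where Faf1 was nearest to 0, as in ARF-129. It did not pass with the random block (-0.34, limma adjusted p = 0.161), with its segment mean (-0.13, limma adjusted p = 0.366), nor without ARF-129, ARF-112 or ARF-104 (limma adjusted p 0.107 to 0.137), the fits in which no gene passed.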

How the data were processed

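Per the file headers, the authors scanned each array and made the red and green processed intensity of every spot with Agilent Feature Extraction 8.5.1.1 (sparser design), 9.1.3.1 (ARF-129, ARF-112, ARF-104) or 9.5.3.1 (ARF-128, denser), subtracting background and applying a linear dye factor. Each deposited file also holds the log10 ratio of red over green, and the authors' deposited value tables repeat it as log10 values for the sparser and log2 values for the denser design, uncentred; both served as alternatives. The build mm7 is named in the header of the ARF-128PlusMinus array.

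For each probe the processed red intensity was divided by the green, taken to log2 and centred on each array's autosomal median. Control spots and spots marked as outliers were left out. Gene means, Faf1 minus its flank, single probes and the parts of the gene were tested against 0 with limma 3.58.1 (intercept, eBayes, Benjamini-Hochberg over all features with a value, threshold 0.05) in R 4.3.3 with statmod 1.5.0. Spread of the reference DNA itself does not enter this test. ARF-128 entered by its denser array. Tables were made with Python 3.11.15, numpy 2.4.6, pandas 2.3.3 and numba 0.67.0. Segments came from penalised least squares (penalty 5 log n, at least 5 probes). Fits and segments were checked on simulated data. The number of arrays limits the precision.

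Named genes were Faf1, Cdkn2a, members of the partner list past the test and the 5 genes most like Faf1; named probes were those on both designs and the 3 lowest and 3 highest. Cdkn2c was added as the neighbour, and A_67_P05357315, Fas, Rela, Chuk, Traf2, Casp8 and Ctnnb1 were named after their values were seen. The members and lists were chosen with earlier results of these data known. Alternatives were other intensity columns, normexp (offset 50), centring, flags, dim probes, flank sizes, the arrays of ARF-128, each tumour left out and scan day as a block; the GC adjustment and leaving out the lowest probe were added after seeing the data. The table for gene names was of the assembly GRCm38.p6.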

Additional observations from a re-analysis of the deposited data

Results flagged for a closer look

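Among 19 groups of 4 or 5 values examined for a sample far from the others, 1 stood out, about as many as chance gives at 1 in 20. The probe A_67_P05357129 read -1.53 in ARF-129, and the gap to the next tumour was 0.858 of the range of its 4 values.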

How the results depend on the processing

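The mean of the Faf1 probes kept its direction under all 19 alternatives (-0.68 to -0.09; limma adjusted p 0.017 to 0.366) and passed 0.05 under 3 of them: ARF-128 by its sparser array (-0.32), by the mean of both arrays (-0.32) and over the shared probes (-0.68). Faf1 minus its flank kept its direction under all 19 but did not pass under 12, in 4 of which no gene of 19802 passed by limma (without ARF-129, ARF-112 or ARF-104, and with the random block; 2939 to 5520 had an unadjusted p below 0.05). It read -0.035 with normexp, -0.19 with the GC adjustment, -0.21 with the random block, -0.16 with ARF-128 by its sparser array, -0.20 with a flank of 0.5 Mb, -0.17 with one of 2 Mb and -0.15 without the lowest probe. The exact sign-flip permutation test, also among the 12, gave p = 0.0625 for the -0.20. That is the smallest p that 5 tumours allow, so this test could not pass 0.05. With 1 tumour left out, Faf1 minus its flank ranged from -0.23 to -0.17. The first part minus the later part of the gene was 0.06, turned to -0.066 under normexp and was 0.16 with the split at the median probe, which moves only A_67_P05357102. Why normexp and the random block changed these values was not tested.

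Of the 41 probes, 17 were lower, 5 with normexp, 4 with the random block and 3 to 17 with 1 tumour left out. Of the 2 shared probes, 1 was lower by limma, 0 with normexp and 0 with the random block (1 at an unadjusted p below 0.05 in each), and 0 to 1 with 1 tumour left out. Of the partner list, 0 were higher and 0 lower with the random block (5 and 2 at an unadjusted p below 0.05), and 0 to 5 and 0 to 2 with 1 tumour left out, the 0 being those without ARF-129, ARF-112 or ARF-104, where no gene passed by limma (2 to 3 of the list were lower and 5 to 6 higher at an unadjusted p below 0.05). At a threshold of -0.3 the counts of low Faf1 probes were 31 in ARF-129, 22 in ARF-128 by the denser array, 20 in ARF-104 and 12 in ARF-112. On the sparser design they were 1 in ARF-110 and 1 in ARF-128. At -1 they were 10 in ARF-128 by the denser array, 9 in ARF-129 and 2 in each of ARF-104 and ARF-112. On the sparser design they were 0 in ARF-128 and 0 in ARF-110. The shares of all autosomal probes past -0.3 and -1 were not counted, so these counts have no background beside them. A_53_P120972, near 0, changed sign over the 4 denser arrays with normexp (0.0042) and the GC adjustment (0.057) and ranged from -0.14 to 0.053 with 1 tumour left out. Over 5 tumours it gave 0.0037, 0.037 and -0.12 to 0.025. Segments over Faf1 kept their calls under both alternatives. No paired analysis was possible because all tumours form 1 group, each read against the same reference.

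Weak signal over background on the denser array of ARF-128 (red 4.14 times) and 2 probes on the sparser design limit what can be said of single probes in ARF-128 and ARF-110.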
